A study of Homo sapiens with 6 samples.

Results

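The genes of the RNA polymerase II transcription machinery were followed in T-24 cells, an established line of epithelial cells derived from a human cancer of the urinary bladder, after 48 h with CCT068127 or with its vehicle DMSO. The members were taken by gene symbol from the deposited tables: the subunits of RNA polymerase II (POLR2A to POLR2L), the general transcription factors with GTF2A to GTF2H symbols, the Mediator subunits (MED symbols), and a set of elongation factors. Of 38557 gene symbols 72 matched, made up of 12 polymerase subunits, 13 general transcription factors, 30 Mediator subunits and 17 elongation factors.

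RNA polymerase II transcribes the protein-coding genes of the nucleus. The general transcription factors place it at promoters and open the DNA, and Mediator carries signals from DNA-bound activators to it. After initiation the polymerase pauses near the start under the factors DSIF and NELF, and the kinase CDK9, as part of P-TEFb, phosphorylates these factors and the polymerase tail to release it into elongation, where the PAF1 complex, SPT6, FACT, TFIIS and the ELL proteins travel with it or assist it. CCT068127 is known to inhibit CDK9 and also CDK2, a kinase of the cell cycle.

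The treated group was 3 libraries of T-24 cells given 1 µM CCT068127, and the control group 3 libraries given DMSO, each described per the labels as an independent biological replicate. The labels list the DMSO cells as wild type, enter the compound in the same field for the treated cells, and name no engineered allele. All values come from this 1 line, at 1 dose and 1 time, and from poly(A) RNA, so they are mRNA levels and not protein levels. Library totals were 5557546, 1966742 and 4657316 counts with CCT068127, against 371044040, 411097626 and 5955296 with DMSO, so 4 of the libraries were shallow, and a count of 0 allowed up to 1.71 CPM (counts scaled to TMM-adjusted library size) in the shallowest at a limit of 3 counts. In bulk RNA, fewer cells of a type and less RNA per cell cannot be told apart. Of 6 epithelial markers 5 reached 1 TPM (the length-corrected share of a library's transcripts) in at least 1 library. Their summed levels were 5281 to 6725 TPM in treated cells and 3677 to 4874 TPM in DMSO cells. However, CDH1 stayed at or below 0.14 TPM, and EPCAM was lower with CCT068127 (2.67 to 4.11 against 4.29 to 5.71 TPM). The summed urothelial list (4 of 8 genes reaching 1 TPM) was 58.4 to 63.9 TPM with CCT068127 against 214 to 246 TPM with DMSO, carried by GATA3 and PPARG. UPK1B went the other way, at 1.32 to 1.83 TPM with CCT068127 against 0.1 to 0.45 TPM with DMSO. The leukocyte list (3 of 6) was 47.8 to 48.2 TPM with CCT068127 against 9.85 to 15.5 TPM with DMSO, carried by CD68, with LYZ also higher. CD14 went the other way, at 0.94 to 2.79 TPM with CCT068127 against 4.37 to 5.93 TPM with DMSO. PTPRC stayed at or below 0.52 TPM and CD3E at or below 0.05 TPM. The fibroblast list (1 of 6) stayed at or below 1.07 TPM and the endothelial list (2 of 5) at or below 5.67 TPM in every library. The part of these markers in the results below was not tested.

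Relative to the other transcripts of the library, the machinery did not move as a block. Of the 69 members with enough counts to test, 29 were higher (42.0%) and 18 lower (26.1%) in CCT068127 cells than in DMSO cells at an adjusted p under 0.05 (edgeR quasi-likelihood test, two-sided, Benjamini-Hochberg over 13597 genes, n = 3 per group). Among all tested genes 31.9% were called higher and 32.8% lower, 64.7% in all, so a called member is common in these data and the 68.1% of members called is close to that background. The CPM ranges of the groups did not overlap for 57 members, 36 above and 21 below DMSO, where 33.3% of all tested genes lay above and 36.0% below. The median log2 fold change, CCT068127 over DMSO, was 0.47 for the polymerase subunits, 0.06 for the general transcription factors, -0.05 for Mediator and 0.14 for the elongation factors, beside -0.05 over all tested genes. These medians are descriptions, with no test. Leaving out 1 library moved the Mediator median to between -0.22 (without CCT068127 replicate 1) and -0.10, that of the elongation factors to 0.08 (without CCT068127 replicate 1) and that of the general transcription factors to between 0.00 (without DMSO replicate 2) and 0.12 (without CCT068127 replicate 2).

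**Figure D1:**
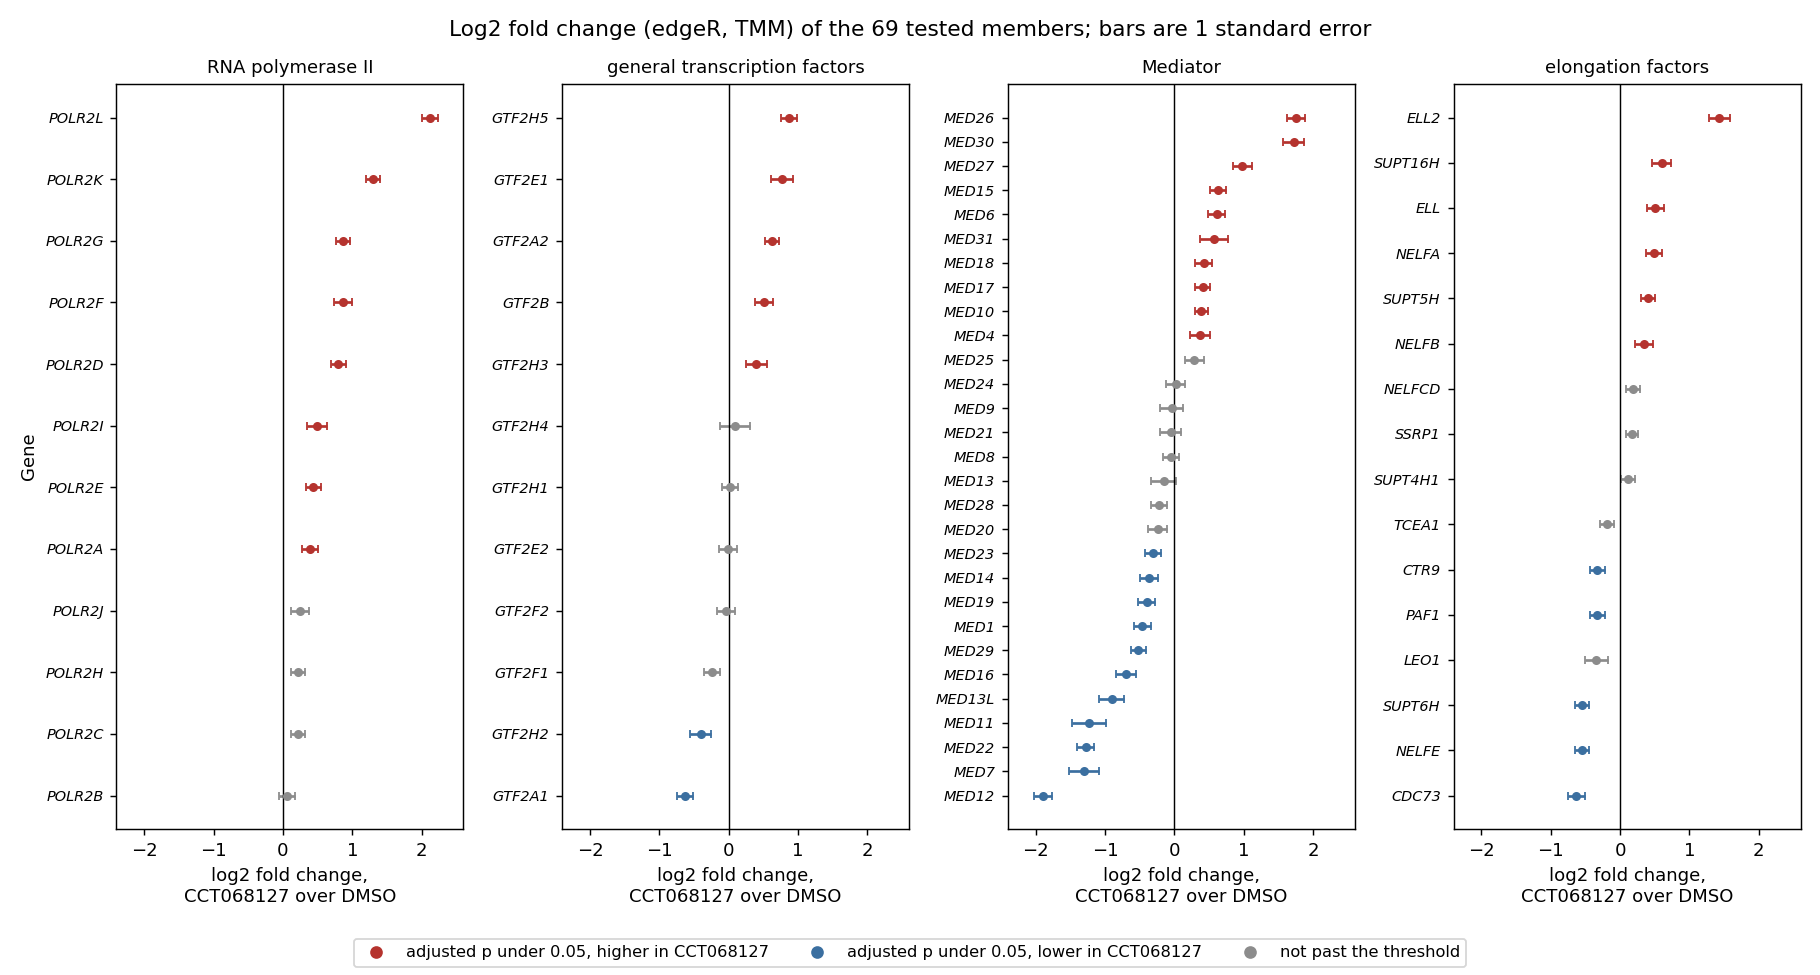
Log2 fold change (CCT068127 over DMSO, edgeR with TMM scaling) of the 69 tested members by complex, with bars of 1 standard error; red points are called higher, blue points lower and grey points not called. The 12 polymerase subunits lie between 0.06 and 2.12, whereas Mediator spans -1.89 to 1.75.

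The zero line of these comparisons depends on how libraries are scaled. With TMM, which centres on the bulk of genes, the median of all tested genes was -0.05; with library totals it was -0.36, and on log2(TPM + 1) values -0.46. The scaling factors were 0.886 to 0.911 in the CCT068127 libraries and 1.10 to 1.13 in the DMSO libraries. Under library totals 14 members were called higher and 28 lower. Of all tested genes 22.1% were then called higher and 48.3% lower, 70.4% in either direction. On log2(TPM + 1) values 9 members were higher and 35 lower. The shares over all genes tested on that scale were 17.2% higher and 51.9% lower, 69.1% in either direction. The distance of the polymerase median from the median of all tested genes was 0.52 with TMM, 0.51 with library totals and 0.46 on log2(TPM + 1) values, and that of Mediator 0.00, -0.01 and -0.05. It also depended on which genes were kept: without the low-count filter it was 0.71 for the polymerase and 0.20 for Mediator, and on log2(TPM + 1) without a filter, where the median of all genes was -0.04, it was 0.04 and -0.46. Fold changes below are of TMM-scaled counts unless another scale is named, so they differ from the ratios of the TPM printed beside them. The same call under TMM, DESeq2 size factors, library totals and log2(TPM + 1) was reached by 9 members upwards and by 16 downwards. These were 13% and 23.2% of the tested members, beside 15.7% and 30.5% of all tested genes. The 9 were POLR2D, POLR2F, POLR2G, POLR2K, POLR2L, MED26, MED27, MED30 and ELL2. The 16 were GTF2A1, 10 Mediator subunits (MED1, MED7, MED11, MED12, MED13L, MED14, MED16, MED19, MED22 and MED29), NELFE, PAF1, CTR9, CDC73 and SUPT6H.

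**Figure D2:**
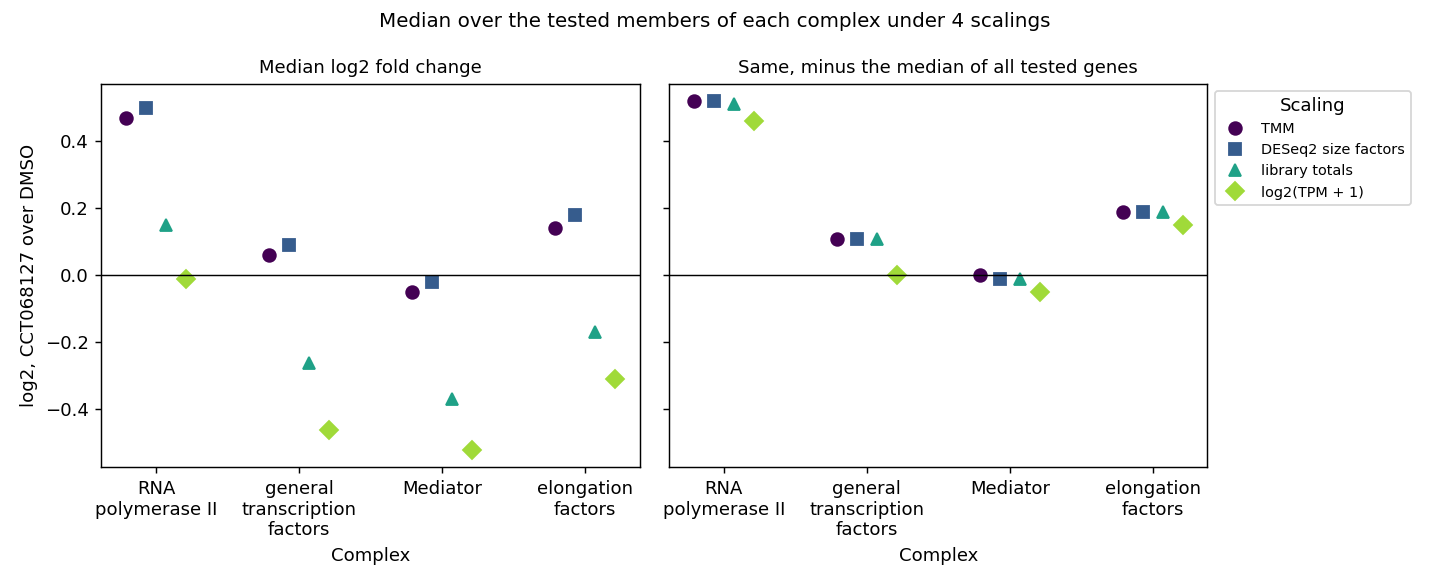
Median log2 fold change of each complex (CCT068127 over DMSO) under 4 scalings, on the left as computed and on the right after the median of all tested genes is subtracted. On the left the polymerase median runs from -0.01 to 0.50, and on the right it stays between 0.46 and 0.52.

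The members that moved furthest were POLR2L, MED26, MED30, ELL2 and POLR2K upwards and MED12, MED7, MED22 and MED11 downwards, the members called with at least a 2-fold difference (15.5% of all tested genes were past that size upwards and 12.9% downwards). MED27, at a log2 fold change of 0.98, lay just under it. The promoter sequences of 4 of these genes are shown so that rises and falls can be read side by side: POLR2L (chr11:842546-842779, minus strand) and MED26 (chr19:16628207-16628454, minus strand), which rose, and MED12 (chrX:71118346-71118555, plus strand) and MED11 (chr17:4731178-4731427, plus strand), which fell. MED7 and MED22 fell further than MED11 but are not shown. MED7 had under 150 bases free of annotated exons, and MED22 had no promoter entry. The sequences are from RefSeq on GRCh38.p14, 5′ to 3′, each running from 250 bases before the gene's RefSeq start to the last base before the nearest exon annotated in GENCODE 29. Capitals mark GGGCGG, the letters bound by SP family factors, GCGC followed by any 2 bases and GCGC, those of NRF1, and their reverse complements; for MED26, GENCODE 29 also holds a start further upstream.
POLR2L: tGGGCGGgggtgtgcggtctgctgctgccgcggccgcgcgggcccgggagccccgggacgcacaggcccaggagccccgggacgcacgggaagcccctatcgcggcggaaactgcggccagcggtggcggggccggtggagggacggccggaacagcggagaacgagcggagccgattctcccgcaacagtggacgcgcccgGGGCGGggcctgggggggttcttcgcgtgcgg
MED26: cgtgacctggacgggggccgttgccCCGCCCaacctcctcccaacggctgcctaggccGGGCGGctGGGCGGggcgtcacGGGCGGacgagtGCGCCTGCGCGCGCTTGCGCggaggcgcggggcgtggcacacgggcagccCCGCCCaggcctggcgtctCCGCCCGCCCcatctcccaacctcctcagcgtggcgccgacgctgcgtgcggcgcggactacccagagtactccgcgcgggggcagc
MED12: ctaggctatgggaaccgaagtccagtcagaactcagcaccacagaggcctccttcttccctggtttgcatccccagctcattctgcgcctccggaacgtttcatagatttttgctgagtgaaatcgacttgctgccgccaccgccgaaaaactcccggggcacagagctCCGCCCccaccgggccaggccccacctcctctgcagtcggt
MED11: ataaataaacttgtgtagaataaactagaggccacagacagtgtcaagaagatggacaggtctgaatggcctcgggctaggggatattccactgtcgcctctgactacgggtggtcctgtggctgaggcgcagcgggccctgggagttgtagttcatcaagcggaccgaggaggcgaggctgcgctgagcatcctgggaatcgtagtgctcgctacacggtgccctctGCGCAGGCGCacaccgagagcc
POLR2L held 2 GGGCGG matches, MED26 held 7 beside 2 NRF1 matches, MED12 held 1 GGGCGG match and MED11 held 1 NRF1 match. In the 250 bases before the start, GGGCGG on either strand was found in 67.5% of 10412 tested genes with a promoter entry, in 60.9% of the 23 higher members and in 73.3% of the 15 lower members with an entry. The NRF1 letters were found in 14% of tested genes, 21.7% of higher members and 13.3% of lower members.

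Among the RNA polymerase II subunits 8 of 12 were higher and 0 lower with TMM, 5 and 0 with library totals, and 5 and 2 on log2(TPM + 1) values. With TMM 66.7% of the subunits were thus higher, beside 31.9% of all tested genes. POLR2L showed the largest difference. POLR2L encodes RPB10, a small zinc-binding subunit that polymerases I, II and III share (chromosome 11, 837356 to 842545, GENCODE 29 on GRCh38). Its level was 1034, 801 and 941 TPM in CCT068127 cells, against 309, 287 and 307 TPM in DMSO cells. The lowest treated library lay far above the highest control. The fold change was 4.33 (log2 2.12 ± 0.12, SE; edgeR adjusted p = 1.86e-07), and under library totals and log2(TPM + 1) the log2 estimate was 1.80 and 1.61. Within each library POLR2L made up 48.0, 42.4 and 48.2% of the summed TPM of the 12 subunits with CCT068127, against 23.3, 22.3 and 24.3% with DMSO, a share that no scaling between libraries can alter. Without POLR2L, the other subunits summed to 1121, 1091 and 1011 TPM in treated cells and to 1015, 997 and 959 TPM in DMSO cells.

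POLR2K, another small subunit shared by the 3 polymerases (RPB12), showed the same order of groups (chromosome 8, 100150584 to 100154002). Levels of 118, 130 and 126 TPM were measured in CCT068127 cells, against 68.3, 71.7 and 72.8 TPM in DMSO cells, with no overlap (2.46-fold; log2 1.30 ± 0.10; edgeR adjusted p = 1.32e-06). POLR2G encodes RPB7, which forms with POLR2D (RPB4) the stalk where nascent RNA leaves the enzyme (chromosome 11, 62761544 to 62766710). POLR2G had 236, 252 and 217 TPM in CCT068127 cells, against 178, 176 and 186 TPM in DMSO cells, without overlap (1.83-fold; log2 0.87 ± 0.10; edgeR adjusted p = 2.42e-05). Its stalk partner POLR2D rose by a similar 0.80 ± 0.11 (edgeR adjusted p = 7.98e-05). POLR2F, the shared subunit RPB6, rose by 0.86 ± 0.13 (edgeR adjusted p = 0.000225).

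POLR2A, the largest subunit, which holds the catalytic centre and the tail phosphorylated by CDK9, moved little (chromosome 17, 7484366 to 7514616). TMM-scaled CPM were 255, 302 and 237 with CCT068127, against 210, 209 and 184 with DMSO, a log2 difference of 0.39 ± 0.11 (edgeR adjusted p = 0.0111) that turned to -0.09 on log2(TPM + 1) values (limma adjusted p = 0.49). In TPM the groups overlapped, at 55.1, 67.5 and 52.9 with CCT068127 against 65.4, 63.8 and 57.6 with DMSO. Its call was also lost without DMSO replicate 3 (edgeR adjusted p = 0.0768). The ratio of POLR2L to POLR2A TPM, chosen after the values were seen and needing no scaling, was 18.8, 11.9 and 17.8 in the treated libraries and 4.73, 4.5 and 5.33 in the controls. POLR2I, the small subunit RPB9, had a log2 fold change of 0.49 with TMM and 0.00 on log2(TPM + 1), and POLR2E, the shared subunit RPB5, 0.44 and -0.01. The POLR2I call was lost without CCT068127 replicate 1 or DMSO replicate 3. POLR2I shares exonic bases with genes on the opposite strand (TBCB and OVOL3 among them), and so do POLR2B, POLR2C, POLR2D, POLR2E, POLR2F and POLR2J. POLR2C and POLR2D also share them with a gene on their own strand. The sources used here do not say whether counting used strand. The 4 subunits not called with TMM were POLR2B, which forms the catalytic cleft with POLR2A (0.06 ± 0.11), POLR2C (0.22 ± 0.10), POLR2H (0.22 ± 0.10) and POLR2J (0.24 ± 0.13). POLR2B and POLR2C were called lower on log2(TPM + 1) values, at -0.41 (limma adjusted p = 0.0155) and -0.27 (limma adjusted p = 0.0291). POLR2B had 37.9, 48.9 and 40.6 TPM in CCT068127 cells, against 53.3, 56.2 and 59.6 TPM in DMSO cells. Reads of POLR2J are uncertain, since near-identical copies (POLR2J2, POLR2J3 and POLR2J4) are in the tables.

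**Figure D3:**
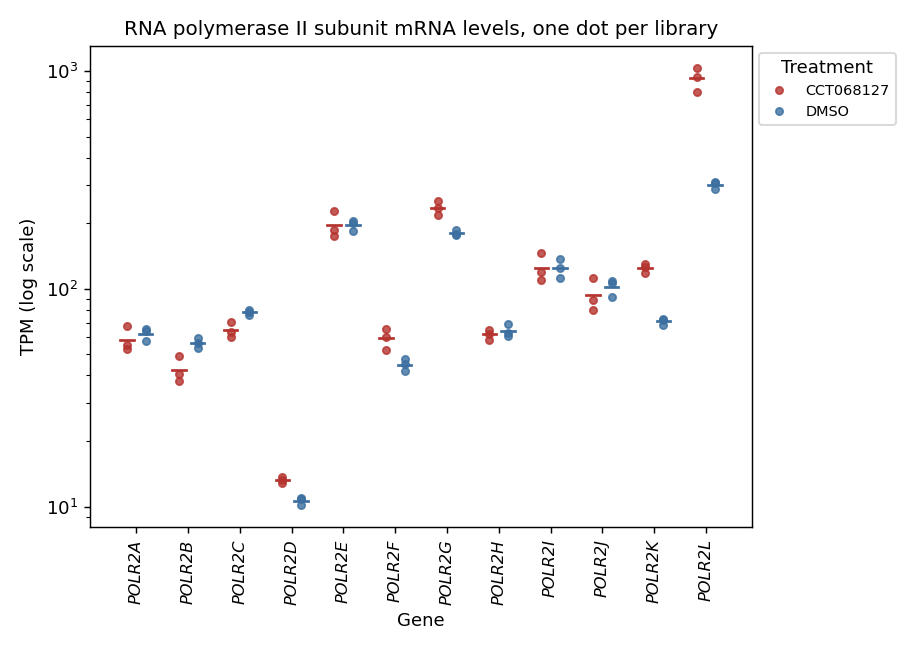
TPM on a log scale of the 12 RNA polymerase II subunits, with 1 dot per library, CCT068127 left of DMSO for each gene and bars at the group means. POLR2L, POLR2K, POLR2G, POLR2F and POLR2D lie above DMSO in every treated library, POLR2B and POLR2C lie below it, and POLR2A, POLR2E, POLR2H, POLR2I and POLR2J overlap.

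Of the 12 tested general transcription factors 5 were higher and 2 lower with TMM, 3 and 6 with library totals, and 0 and 6 on log2(TPM + 1) values. The TMM shares were 41.7% higher and 16.7% lower, beside 31.9% and 32.8% of all tested genes. The subunits of TFIIA had estimates of opposite sign. GTF2A1 encodes the precursor of the large TFIIA subunits, which hold TBP on the TATA box (chromosome 14, 81175452 to 81221377). Its level was 4.68, 6.22 and 5.07 TPM with CCT068127, against 11.3, 11 and 11.4 TPM with DMSO (log2 -0.63 ± 0.12; edgeR adjusted p = 0.000984), and its call held in all 4 scalings. GTF2A2, the small TFIIA subunit, had 61.5, 70.8 and 65.1 CPM in treated cells against 42.3, 44.6 and 39.9 CPM in DMSO cells (log2 0.62 ± 0.10; edgeR adjusted p = 0.000397), but on log2(TPM + 1) values its difference was 0.15 (limma adjusted p = 0.205). The ratio of GTF2A1 to GTF2A2 TPM was 0.0775, 0.0862 and 0.0766 with CCT068127, against 0.189, 0.177 and 0.201 with DMSO, so the balance of the TFIIA transcripts differed whichever scaling is used. GTF2A1 shares exonic bases with the opposite-strand gene AL136040.1.

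TFIIH, which melts the promoter and carries a kinase for the polymerase tail, held both directions too. GTF2H5, the smallest core subunit, had 48.7, 37.7 and 45 CPM in CCT068127 cells, against 24.3, 25.4 and 23.1 CPM in DMSO cells (log2 0.87 ± 0.12; edgeR adjusted p = 9.58e-05; 0.32 on log2(TPM + 1), limma adjusted p = 0.0554). GTF2H2, a core subunit that activates the helicase ERCC2, had 10.6, 11.4 and 10.4 CPM with CCT068127, against 15.1, 13.3 and 14 CPM with DMSO (log2 -0.40 ± 0.15; edgeR adjusted p = 0.0350). That call was lost with DESeq2 size factors (edgeR adjusted p = 0.0521) and without any 1 library other than CCT068127 replicate 2 (0.0510 to 0.0884), and the gene has the near-identical copies GTF2H2B, GTF2H2C and GTF2H2C_2 in the tables. GTF2H3 rose by 0.40 with TMM and stood at -0.08 on log2(TPM + 1). Its call was lost without CCT068127 replicate 2 or DMSO replicate 1, 2 or 3. GTF2E1, the large subunit of TFIIE, had 17.7, 16.6 and 14.9 CPM in treated cells against 9.80, 10.3 and 8.06 CPM in DMSO cells (log2 0.77 ± 0.16; edgeR adjusted p = 0.00151; 0.29 on log2(TPM + 1), limma adjusted p = 0.0827). GTF2B, or TFIIB, which bridges TBP and the polymerase, had 26.7, 34.3 and 25.6 CPM with CCT068127 against 19.5, 20.2 and 19.0 CPM with DMSO (log2 0.51 ± 0.13; edgeR adjusted p = 0.00509), and its call was lost with library totals (0.20; edgeR adjusted p = 0.174). The TFIIF subunits GTF2F1 (-0.24 ± 0.11) and GTF2F2 (-0.04 ± 0.13) were not called with TMM, nor were GTF2E2, GTF2H1 and GTF2H4, with estimates of -0.01, 0.02 and 0.09. With library totals GTF2F1 (-0.56; edgeR adjusted p = 0.00105), GTF2F2 (-0.35; 0.0321), GTF2E2 (-0.32; 0.0435) and GTF2H1 (-0.29; 0.0302) were called lower, as they were on log2(TPM + 1) values. GTF2A1L, a TFIIA paralogue known from germ cells, was listed at 0 in all treated libraries and at 0.02 to 0.21 TPM in DMSO libraries, and was not tested.

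Mediator held both the largest fall and the next largest rises of the machinery, with 10 of 29 tested subunits higher and 11 lower with TMM, 5 and 15 with library totals, and 3 and 17 on log2(TPM + 1) values. With TMM its shares of 34.5% higher and 37.9% lower were close to the 31.9% and 32.8% of all tested genes. The kinase module, a dissociable part in which MED12 activates CDK8 and MED13 tethers the module to the core, had 2 of 3 tested members lower and 0 higher. MED12 (chromosome X, 71118556 to 71142454) had 4.20, 3.61 and 3.14 TPM in CCT068127 cells, against 18.9, 19.6 and 19.2 TPM in DMSO cells. Every treated library was below every control, and the TMM-scaled count was 3.72-fold lower (log2 -1.89 ± 0.13; edgeR adjusted p = 8.32e-07). MED13L, a paralogue of MED13, had 3.31, 6.58 and 4.96 TPM with CCT068127, against 12.6, 11.1 and 13.2 TPM with DMSO (log2 -0.90 ± 0.18; edgeR adjusted p = 0.00147). MED13 itself was not called with TMM (log2 -0.15 ± 0.18; edgeR adjusted p = 0.467), with 7.93, 14.9 and 9.94 TPM in treated cells around 13.4, 13.5 and 13.4 TPM in DMSO cells. It was called lower with library totals (-0.46; edgeR adjusted p = 0.0377) and without CCT068127 replicate 2. The transcript length implied by its counts and TPM differed by -0.27 on the log2 scale between treated and DMSO cells, at the 3.27 percentile of 9108 genes, which enters its TPM and any ratio to it. The ratio of MED12 to MED13 TPM was 0.530, 0.242 and 0.316 with CCT068127, against 1.42, 1.45 and 1.44 with DMSO. MED12L, a paralogue of MED12, stayed at or below 0.43 TPM in every library and was not tested.

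The Mediator head, which contacts the polymerase, had 3 of 7 subunits higher and 2 lower with TMM. These were 42.9% and 28.6%, beside 31.9% and 32.8% of all tested genes. MED22 (chromosome 9, 133338323 to 133348131) had 8.38, 8.46 and 10.3 TPM in CCT068127 cells, against 29.9, 33.1 and 30.5 TPM in DMSO cells (2.44-fold lower; log2 -1.28 ± 0.12; edgeR adjusted p = 7.24e-06). MED11, its partner at the base of the head (chromosome 17, 4731428 to 4733610), had 7.94, 4.61 and 6.68 TPM in CCT068127 cells, against 20.5, 22.5 and 25.7 TPM in DMSO cells (log2 -1.23 ± 0.24; edgeR adjusted p = 0.000972). The MED11 values rest on 20, 4 and 14 counts in the treated libraries, and the gene shares exonic bases with CXCL16 on the opposite strand, as MED22 does with AL772161.1. MED17, the scaffold of the head, went the other way by 0.41 with TMM but stood at -0.07 on log2(TPM + 1). Its call was lost without CCT068127 replicate 3. MED22 to MED17 TPM ratios were 0.527, 0.428 and 0.508 with CCT068127, against 1.57, 1.66 and 1.55 with DMSO. MED6 rose by 0.61 ± 0.12 with TMM and was not called on log2(TPM + 1) values (0.10), and MED18 by 0.42 with TMM against -0.05 on log2(TPM + 1). The MED18 call was lost without CCT068127 replicate 1 or DMSO replicate 2 or 3. MED8 and MED20 were not called with TMM, at -0.05 and -0.24, and were called lower with library totals.

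In the middle module, which links head and tail, 4 of 9 subunits were higher and 3 lower with TMM. The shares were 44.4% and 33.3%, beside 31.9% and 32.8% of all tested genes. MED26, which joins Mediator to the polymerase and whose N-terminal domain is known to recruit elongation complexes holding ELL proteins, rose most (chromosome 19, 16574907 to 16629062). It had 15.8, 18.3 and 15.4 TPM in CCT068127 cells, against 6.67, 7.10 and 6.37 TPM in DMSO cells (3.36-fold; log2 1.75 ± 0.13; edgeR adjusted p = 8.56e-07). Against the backbone subunit MED14, the MED26 ratio was 1.98, 1.66 and 1.66 with CCT068127, against 0.380, 0.447 and 0.417 with DMSO: the more abundant of these transcripts was MED26 in treated cells and MED14 in DMSO cells. MED26 shares exonic bases with AC008764.8 on the opposite strand. It also shares them with AC008764.1 and AC008764.4 on its own strand, where counting by strand would not separate them. MED7, which in yeast forms the hinge of the middle with MED21, had 4.96, 5.23 and 2.97 TPM with CCT068127, against 13.8, 13.3 and 13.9 TPM with DMSO (log2 -1.30 ± 0.22; edgeR adjusted p = 0.00045), on 23, 9 and 12 treated counts. MED21 was not called with TMM (-0.05 ± 0.15). MED1, the subunit bound by nuclear receptors, had 10.4, 12.0 and 8.44 TPM in treated cells against 20.2, 19.1 and 18.4 TPM in DMSO cells (log2 -0.46 ± 0.12; edgeR adjusted p = 0.0059). MED19 fell by 0.40 on the log2 scale, a call lost without DMSO replicate 2. MED31 stood at 0.57 ± 0.20 with TMM and at 0.12 on log2(TPM + 1). MED10 and MED4 stood at 0.39 and 0.37 with TMM and at -0.09 and -0.08 on log2(TPM + 1). The calls of MED31 and MED4 were lost without CCT068127 replicate 2 or 3 or DMSO replicate 1 or 2. That of MED4 was also lost without DMSO replicate 3. MED9 was not called with TMM (-0.04); MED9 and MED21 were called lower on log2(TPM + 1) values.

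MED14, the backbone that joins the modules, had 7.98, 11 and 9.27 TPM with CCT068127, against 17.6, 15.9 and 15.3 TPM with DMSO (log2 -0.36 ± 0.13; edgeR adjusted p = 0.0276). Its call was lost without CCT068127 replicate 1 or 3 or DMSO replicate 1 or 2 (edgeR adjusted p from 0.0515 to 0.0788), and it shares exonic bases with MED14OS on the opposite strand. Of the tail and associated subunits, which meet activators, 3 of 9 were higher and 3 lower with TMM. Each share was 33.3%, close to the 31.9% higher and 32.8% lower of all tested genes. MED30 (chromosome 8, 117520713 to 117540262) had 59.8, 42.2 and 63.2 TPM in CCT068127 cells, against 27.6, 23.3 and 29.5 TPM in DMSO cells (3.29-fold; log2 1.72 ± 0.15; edgeR adjusted p = 2.91e-06). The transcript length implied by its counts and TPM was 0.15 longer on the log2 scale in treated cells, at the 95.3 percentile of 9108 genes, and its log2 difference was 1.00 on log2(TPM + 1) values beside 1.72 on counts. MED27 had 48.6, 35.4 and 42.3 TPM with CCT068127 against 33.3, 29 and 27.8 TPM with DMSO (log2 0.98 ± 0.14; edgeR adjusted p = 0.000111), and MED15, a classical activator target, rose by 0.63 ± 0.11 with TMM and was not called on log2(TPM + 1) values (0.19). MED16 and MED29 fell by 0.70 and 0.52 on the log2 scale. MED23 fell by 0.31, and that call was lost with DESeq2 size factors and with DESeq2. It was also lost without CCT068127 replicate 3 or DMSO replicate 2 or 3. MED24, MED25 and MED28 were not called with TMM, at 0.02, 0.29 and -0.22, and MED24 and MED28 were called lower on log2(TPM + 1) values. Summed over the 30 subunits, Mediator mRNA came to 646, 639 and 651 TPM in CCT068127 cells and to 814, 789 and 789 TPM in DMSO cells.

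**Figure D4:**
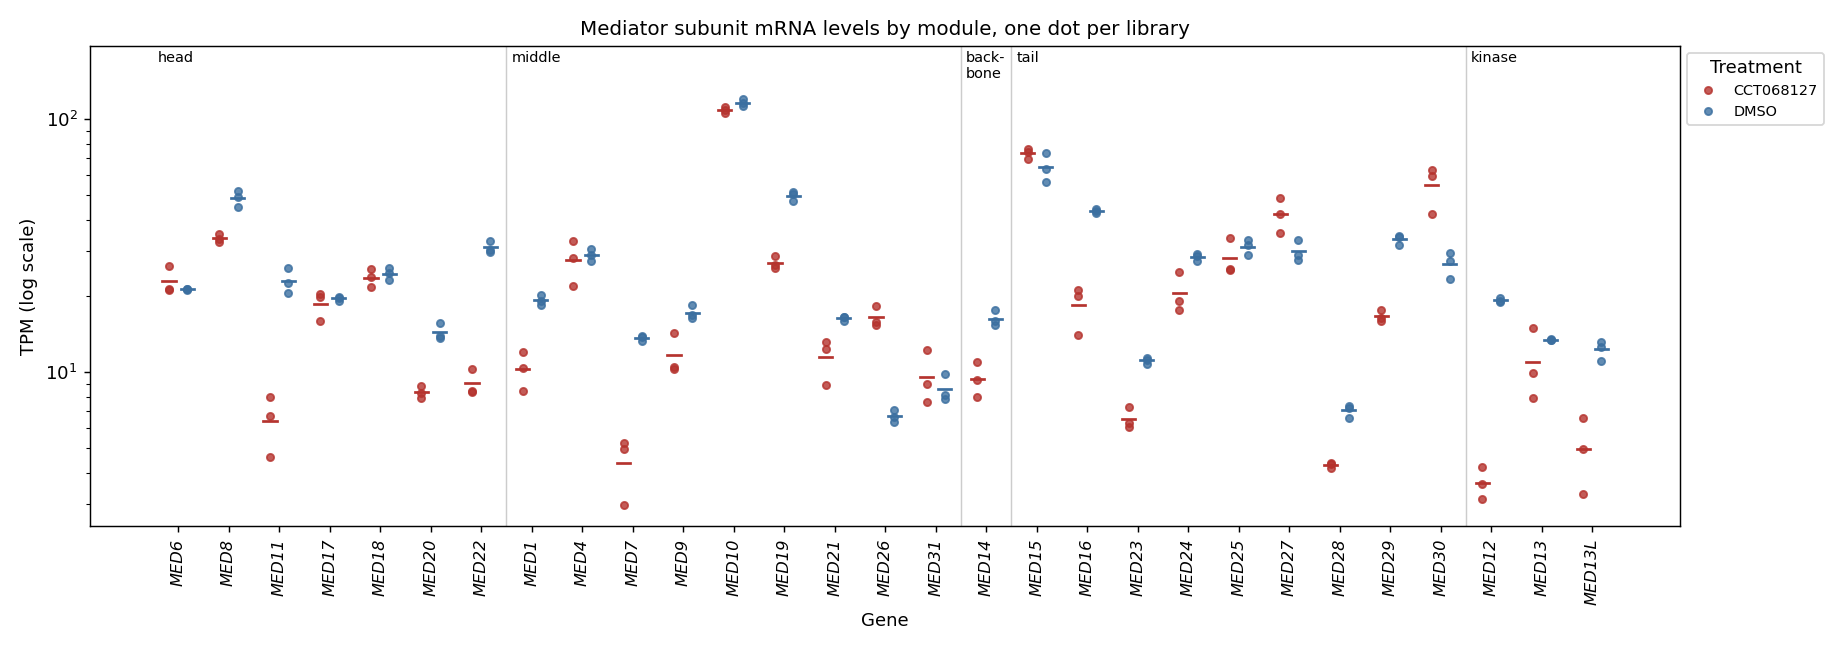
TPM on a log scale of the 29 tested Mediator subunits grouped by module, with 1 dot per library, CCT068127 left of DMSO and bars at the group means. MED12 in the kinase module and MED22, MED11 and MED7 lie well below DMSO, and MED26 and MED30 well above it.

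Among the elongation factors 6 of 16 tested members were higher and 5 lower with TMM, 1 and 7 with library totals, and 1 and 10 (of 17) on log2(TPM + 1) values. The TMM shares, 37.5% higher and 31.2% lower, were close to the 31.9% and 32.8% of all tested genes. ELL2, a subunit of the super elongation complex that raises the rate of the polymerase, rose most (chromosome 5, 95885098 to 95962071). It had 77.8, 111 and 86.7 TPM with CCT068127, against 48.9, 38.5 and 38.7 TPM with DMSO (2.69-fold; log2 1.43 ± 0.15; edgeR adjusted p = 1.27e-05). Its paralogue ELL stood at 0.51 ± 0.12 with TMM and at 0.00 on log2(TPM + 1), and the ratio of ELL2 to ELL TPM was 4.71, 8.40 and 4.39 in treated cells against 2.90, 2.41 and 2.43 in DMSO cells. The transcript length implied by ELL2 counts and TPM differed by -0.16 on the log2 scale between treated and DMSO cells. That lay at the 5.91 percentile of 9108 genes and enters the ELL2 TPM and this ratio. ELL3, with 3 to 14 counts in the treated libraries, was not tested. ELL2 shares exonic bases with the opposite-strand AC104123.1.

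The pausing factors moved unequally. NELFE, the RNA-binding subunit of NELF (chromosome 6, 31952087 to 31959110), had 61.2, 54.9 and 57.1 TPM in CCT068127 cells, against 117, 124 and 115 TPM in DMSO cells (log2 -0.55 ± 0.10; edgeR adjusted p = 0.000796), and shares exonic bases with SKIV2L on the opposite strand. NELFA, which contacts the polymerase, had 52.2, 44.6 and 51.6 CPM with CCT068127 against 38.3, 35.2 and 32.8 CPM with DMSO (log2 0.49 ± 0.11; edgeR adjusted p = 0.00324), a direction that turned to -0.04 on log2(TPM + 1) values. NELFB likewise stood at 0.34 with TMM and -0.18 on log2(TPM + 1). The NELFB call was lost without CCT068127 replicate 1 or 3 or DMSO replicate 1, 2 or 3. NELFCD was not called with TMM (0.19 ± 0.10) but was lower on log2(TPM + 1) values (-0.31, limma adjusted p = 0.0140). NELFE to NELFB TPM ratios of 0.593, 0.755 and 0.646 with CCT068127 and 1.17, 1.28 and 1.15 with DMSO did not overlap. SUPT5H, the large DSIF subunit and a CDK9 substrate, had 174, 189 and 167 CPM in treated cells against 133, 140 and 128 CPM in DMSO cells (log2 0.40 ± 0.10; edgeR adjusted p = 0.00402), but -0.08 on log2(TPM + 1) values. SUPT4H1, its partner, was not called with TMM (0.11 ± 0.10) but was lower on log2(TPM + 1) values (-0.36; limma adjusted p = 0.0092).

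The PAF1 complex and SPT6, which accompany the elongating polymerase and support histone marks of active genes, had 4 of 5 members lower and 0 higher with TMM. Over all tested genes 32.8% were called lower. CDC73 (parafibromin) had 15.4, 19.3 and 17.6 TPM with CCT068127, against 34.8, 33.7 and 36.7 TPM with DMSO (log2 -0.63 ± 0.12; edgeR adjusted p = 0.000804). PAF1 had 36.8, 34.8 and 35.7 TPM in treated cells against 67.2, 63.1 and 58.3 TPM in DMSO cells (log2 -0.33 ± 0.11; edgeR adjusted p = 0.0188), a call lost without CCT068127 replicate 3 or DMSO replicate 2 (0.0583 in each fit) and an effect of -0.20 against DMSO replicate 3 alone. CTR9, the scaffold of the complex, fell by 0.33 on the log2 scale (edgeR adjusted p = 0.0205), a call also lost without DMSO replicate 2. LEO1 was not called with TMM (-0.34 ± 0.17) but was with library totals (-0.65). SUPT6H, the histone chaperone SPT6, had 30.5, 33.7 and 30.6 TPM in CCT068127 cells against 62.2, 67.5 and 65.0 TPM in DMSO cells (log2 -0.55 ± 0.10; edgeR adjusted p = 0.000477) and shares exonic bases with SDF2 on the opposite strand. The SUPT6H to SUPT5H TPM ratio was 0.438, 0.431 and 0.444 with CCT068127, against 0.810, 0.857 and 0.881 with DMSO. The summed TPM of PAF1, CTR9, LEO1 and CDC73 was 84.0, 99.4 and 92.6 in treated cells and 167, 164 and 163 in DMSO cells. This sum leaves out RTF1 and WDR61, listed with the other elongation factors below. WDR61 was not called with TMM (log2 -0.28 ± 0.12, edgeR adjusted p = 0.0559).

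The FACT subunit SUPT16H, a histone chaperone, had 247, 366 and 279 CPM in CCT068127 cells against 203, 195 and 188 CPM in DMSO cells (log2 0.60 ± 0.14; edgeR adjusted p = 0.00274), and its call was lost with library totals (0.28; edgeR adjusted p = 0.0818). Its partner SSRP1 was not called with TMM (0.17 ± 0.09) but was lower on log2(TPM + 1) values (-0.31; limma adjusted p = 0.00859). TCEA1, or TFIIS, which restarts backtracked polymerase, had 159, 190 and 169 CPM with CCT068127, against 199, 194 and 195 CPM with DMSO, and was not called (log2 -0.19 ± 0.10; edgeR adjusted p = 0.109). It was called lower with library totals (-0.50; edgeR adjusted p = 0.000973) and without CCT068127 replicate 2 (-0.29; edgeR adjusted p = 0.0144).

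**Figure D5:**
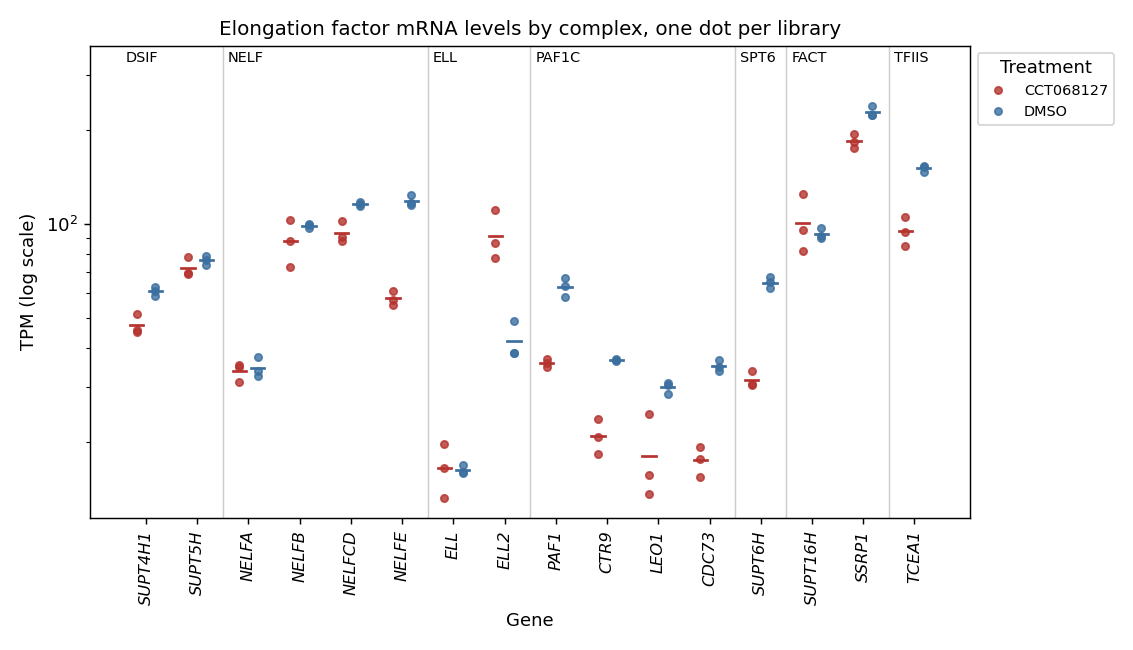
TPM on a log scale of the 16 tested elongation factors grouped by complex, with 1 dot per library, CCT068127 left of DMSO and bars at the group means. ELL2 lies above DMSO in every treated library, whereas NELFE, NELFCD, SUPT4H1, SUPT6H, SSRP1, TCEA1 and the 4 PAF1 complex members lie below.

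Genes that work beside the machinery, taken from lists chosen with earlier results of these data known, also held both directions. The counts below are to be read beside the shares of all tested genes. These were 31.9% higher and 32.8% lower with TMM, and 22.1% and 48.3% with library totals. The gene named first for each list and direction has its smallest adjusted p. Of 14 TFIID subunits 4 were higher and 4 lower, led by TAF13 (log2 1.27 ± 0.17; edgeR adjusted p = 0.000101) and TAF2 (-0.62 ± 0.11; 0.000519). The other TFIIH subunits had 3 of 5 higher and 0 lower, led by the helicase ERCC2 (1.00 ± 0.20; edgeR adjusted p = 0.00156). The partners of the Mediator kinase module had 0 of 3 higher and 2 lower: CDK19, the paralogue of CDK8 (-1.14 ± 0.16; edgeR adjusted p = 0.000104), and CDK8 itself (-0.43 ± 0.13; 0.0148). For P-TEFb and the super elongation complex 2 of 8 tested genes were higher, led by the ELL-associated factor EAF1 (1.11 ± 0.14; edgeR adjusted p = 4.25e-05), and 3 lower, led by MLLT3 (-1.10 ± 0.23; 0.00162). Other elongation factors had 0 of 6 higher and 3 lower, led by RTF1 (-0.51 ± 0.10; edgeR adjusted p = 0.00118), which associates with the PAF1 complex. Of 14 Integrator subunits, which cleave nascent RNA and terminate paused polymerase, 1 was higher (INTS1, 0.82 ± 0.12; edgeR adjusted p = 0.000173) and 7 lower, led by INTS3 (-1.24 ± 0.15; 3.63e-05). Among 12 polymerase assembly factors and tail phosphatases 2 were higher, led by GPN3, which acts in nuclear import of the polymerase (1.53 ± 0.14; edgeR adjusted p = 4.1e-06), and 4 lower, led by the small phosphatase CTDSP2 (-1.37 ± 0.11; 2.08e-06). Of 6 near-identical copies of POLR2J and GTF2H2, 0 were higher and 1 lower (GTF2H2B, -0.50 ± 0.18; edgeR adjusted p = 0.0285), and of 2 termination factors none was called. Under library totals more of these genes were lower: 7 of the TFIID subunits, 0 of the other TFIIH subunits, all 3 kinase partners, 5 of the P-TEFb and super elongation genes, 5 of the other elongation factors, 11 Integrator subunits and 7 assembly factors and phosphatases, while the higher ones numbered 3, 1, 0, 1, 0, 1 and 2 in that order.

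Transcript length and promoter letters, which the choice of members did not use, were set beside the calls as descriptions. Across genes, which are not independent replicates, Spearman's rho between the log2 fold change and the effective length implied by counts and TPM was -0.26 over the 69 tested members and -0.20 over 12715 tested genes. Within the complexes it was -0.41 for the polymerase, 0.03 for the general transcription factors, -0.32 for Mediator and 0.31 for the elongation factors. With genomic span it was -0.06 over members and -0.10 over 12717 genes. With all tested genes cut into 4 equal bins by effective length, the bins held 26, 15, 15 and 13 members from short to long, with median log2 fold changes of 0.32, -0.04, 0.29 and -0.31. The medians of all genes in those bins were 0.14, -0.08, -0.15 and -0.30. POLR2L, POLR2K, POLR2G and MED11 were at 0.269, 0.294, 0.240 and 0.258 of the median gene's effective length.

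CCAAT, the letters bound by NF-Y, was found on either strand in the 250 bases before the RefSeq start in 7 of 15 lower members (46.7%), 1 of 23 higher members (4.35%) and 2 of 15 members not called (13.3%) with a promoter entry. Among all tested genes with an entry it was found in 35.2%, and among all 27305 promoters in 33.0%. The motif list was written with the calls known, and a match is a run of letters, not a site. The 30 bases around the match nearest the start are shown for the 7 lower members and for GTF2E1, the single higher member with a match, 5′ to 3′ on the gene's strand, with CCAAT or its reverse complement in capitals (RefSeq, GRCh38.p14). They lie at chr17:39451322-39451351 for MED1, chr5:157142902-157142931 for MED7, chr11:57712216-57712245 for MED19, chr19:893357-893386 for MED16, chr19:39391291-39391320 for MED29, chr12:116277710-116277739 for MED13L, chr19:39391165-39391194 for PAF1 and chr3:120742631-120742660 for GTF2E1, on the plus strand for MED29 and GTF2E1 and on the minus strand for the others. GENCODE 29 places some of these starts further upstream: the windows of MED7, MED19 and PAF1 lie wholly inside its gene bounds, that of MED7 far inside, and those of MED29, MED13L and GTF2E1 in part.
MED1: ccgacgcattgaCCAATattcgcgagattt
MED7: cagctcttacagCCAATcaaggacagagtc
MED19: tgaaagcattgtCCAATgaaaattaccaac
MED16: atttatattagcCCAATgtgtaatgcaact
MED29: tccttcccctccATTGGcttaattgcctag
MED13L: accaagcgccagCCAATggcgggccgagcc
PAF1: cccagacgctcgCCAATccgtgtgtggttc
GTF2E1: ttcactgaactcATTGGctggtctggtaaa
PAF1 and MED29 are divergent neighbours on chromosome 19, so their stretches before the start overlap and their matches are not independent. CCGGAAG, the letters bound by ETS factors, was found in 32.1% of the 56 members with an entry and in 16.2% of tested genes, with 39.1% of higher and 33.3% of lower members, and TATAAA in 5.36% of members and 5.50% of tested genes. TTTNGCGC, the letters of E2F factors, was found in 3.57% of members and 2.53% of tested genes.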

How the data were processed

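Poly(A) RNA was sequenced from 6 T-24 samples, 3 given CCT068127 and 3 given DMSO. The authors deposited a table of RSEM expected counts, rounded to whole numbers, with 1 row for each gene symbol. They also deposited TPM values to 2 decimals. Per the submitters' processing notes, RSEM and Bowtie were used with hg38, with no versions; annotation and strandedness are not given in the sources used here. The tables held 38557 symbols each, and 27 to 203 genes per library had a count of 0 beside a TPM above 0.

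The main test used edgeR 4.0.16 (R 4.3.3): filterByExpr (minimum count 10, which is 1.74 CPM for the median library, in at least 3 libraries), TMM, a robust quasi-likelihood fit with treatment as its term, and Benjamini-Hochberg adjustment over 13597 genes. Calls were made at an adjusted p under 0.05. CPM were computed with TMM-scaled totals. SE were approximated from the F statistic. The pipeline was tested on simulated data in which few genes changed, equally up and down. Far more genes were called in the real data, so that simulation did not test the choice of scaling. No 2 libraries agreed within counting noise (chi-square per degree of freedom from 1.90 to 8.53 within groups, on thinned counts). Limits at 3 counts cover counting error only, as no molecular identifiers were used. P-values measure the spread between these 3 samples per group.

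Alternatives were scaling by DESeq2 size factors or library totals, no filter, the replicate number as a block, DESeq2 1.42.0, limma 3.58.1 on log2(TPM + 1) with and without a floor on low values (1 TPM in at least 3 of the libraries), the same on log2(TPM + 0.1), thinning of the deep DMSO libraries, DMSO replicate 3 as sole control, and leaving out each library. Fold changes on TPM values understate those of low genes.

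The members, gene lists and the rule for named genes were chosen with earlier results of these data known. Full values are given for POLR2A, MED1, MED12, MED14, GTF2B, SUPT5H, NELFE, PAF1 and TCEA1, for the 3 called members with the smallest adjusted p per complex and direction, and for called members past a log2 difference of 1; each related list gives its smallest adjusted p per direction, and MED13, MED13L and the ratios were named after their values were seen. Gene positions and exon overlaps are from GENCODE 29 (GRCh38), promoters from RefSeq (GRCh38.p14, 56 members matched). Outside the polymerase, overlaps are not named for every member that has one.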

Additional observations from a re-analysis of the deposited data

How the results depend on the processing

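The 29 members called higher became 14 with scaling by library totals, 15 without a low-count filter and 9 with each of the 3 TPM settings, and the 18 called lower became 28 with library totals, 35 on log2(TPM + 1), 34 on log2(TPM + 1) without a filter and 35 on log2(TPM + 0.1). No member was called in opposite directions, and of the 47 called members 21 (9 higher, 12 lower) kept their call and direction in all 15 alternatives with a test. No share of all tested genes is given beside this count or the leave-one-out counts below, so they describe the members alone. For the same call under 4 scalings, the shares were 13% higher and 23.2% lower among members, beside 15.7% and 30.5% of all tested genes. Median log2 fold changes under library totals, no filter, log2(TPM + 1), log2(TPM + 1) without a filter and log2(TPM + 0.1) were -0.14, -0.06, -0.31, -0.29 and -0.31 for all members (0.17 as reported), 0.15, 0.22, -0.01, -0.01 and -0.01 for the polymerase (0.47), -0.26, -0.22, -0.46, -0.43 and -0.48 for the general transcription factors (0.06), -0.37, -0.30, -0.52, -0.50 and -0.53 for Mediator (-0.05), and -0.17, -0.07, -0.31, -0.31 and -0.31 for the elongation factors (0.14). The median of all genes (-0.05 as reported) was -0.36, -0.49, -0.46, -0.04 and -0.53, so on log2(TPM + 1) without a filter it stayed near its reported value while the members' medians were lower. With DMSO replicate 3 as sole control the polymerase median was 0.60. Of the genes named by rule and called higher, POLR2A (-0.09, -0.09 and -0.10), SUPT5H (-0.08 in each setting) and NELFA (-0.04 in each) reversed on TPM values without a call, and POLR2E, GTF2H3, MED4, MED10, MED17, MED18 and NELFB also had estimates below 0 on log2(TPM + 1). Leaving out each library gave 24 to 27 members higher and 12 (without DMSO replicate 2) to 21 (without CCT068127 replicate 2) lower. Medians ran from 0.09 (without CCT068127 replicate 1) to 0.18 for all members, 0.34 to 0.53 for the polymerase, 0.00 (without DMSO replicate 2) to 0.12 (without CCT068127 replicate 2) for the general transcription factors, -0.22 (without CCT068127 replicate 1) to -0.10 for Mediator and 0.08 (without CCT068127 replicate 1) to 0.17 for the elongation factors. The same replicate numbers did not pair the samples (correlation of deviations 0.01, 0.00 and 0.01); with the replicate block 28 members were higher and 15 lower, 43 of the 47 calls were the same and 4 were lost (GTF2H2, MED14, MED23 and MED31). The depth of the 4 shallow libraries limits MED7 and MED11 most, with 4 to 23 counts in treated libraries. The cause of these differences was not tested.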
